A study of Rattus norvegicus with 6 samples.

Results

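DNA replication and S-phase genes were followed in lung RNA of Lewis rats, an inbred strain, on 6 short-oligonucleotide arrays. The study's design names 3 rats a group and the labels number 3 arrays a group, so each array was taken as 1 animal. The list held 38 genes that copy DNA or prepare cells to copy it, and the array held 14217 genes with a probe set of their own. A gene counted as measured when at least 1 probe set was annotated to it and to no other gene, which held for 35 of the 38. Cdc6 and Gins2 had no such probe set, nor had Rrm2, whose probe sets carry a further gene name. The silica group held 3 animals that inhaled crystalline silica dust (Min-U-Sil 5) at 6.2 mg/m3 on 5 days of each week, 6 hours daily, for 6 weeks. The 3 controls breathed filtered air in the same kind of chamber exposure. The sources used here do not give age, sex or the time between exposure and collection of the lungs. Values are linear signal intensities, and each gene is represented by its brightest probe set.

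Before a cell divides it licenses its origins of replication. The origin recognition complex, Cdc6 and Cdt1 load the MCM ring, and Cdc45 and the GINS complex then turn that ring into the active helicase. Polymerases, primase, the PCNA clamp with its loader and a ligase copy both strands, while nucleotide enzymes supply the precursors. Most of these genes are transcribed as cells pass from G1 into S phase, under E2F transcription factors that cyclin E and its kinase help to release. In the adult lung few cells divide at any time, so whole-tissue RNA of these genes reflects a mixture of dividing and resting cells. In such RNA, a change in the number of dividing cells and a change in RNA per cell cannot be told apart.

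Replication genes lay mostly higher in silica-exposed lungs. Of the 35 measured genes, 33 had a positive log2 fold change (silica minus control, on log2(signal + 16), which understates the change of dim genes), which is 94.3%, against 53.7% over all 14217 genes. Their median log2 fold change was 0.54, against 0.02 over all genes. The list was chosen with earlier results of these data known, so its shares and median are descriptions and not tests. The cyclin gene Ccne2, the helicase activator gene Cdc45 and the helicase ring genes Mcm3 and Mcm6 rose, at an adjusted p under 0.05 in limma with Benjamini-Hochberg adjustment over all probe sets. These were 4 of 35, beside a background of 1.55% of all genes by brightest probe set and 0.934% of all 31042 probe sets in the same direction. The call of Ccne2 depended on which of its probe sets stood for it. With each gene's probe set chosen on the control arrays alone, an alternative added after seeing the data, 3 of 35 passed without Ccne2 (background 1.53%), 32 estimates were positive and the median was 0.42. No replication gene passed in the other direction (background 0.12%), and 2 were lower at an unadjusted p under 0.05. At that unadjusted threshold 25 were higher, where the background was 12.6% higher and 7.24% lower.

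The separation of the animals was read without a threshold, likewise as a description of a list chosen with results known. In 28 of the 35 genes every silica array lay above every control array, against 18.7% of all genes. In 2 genes, Pola2 and Tyms, every silica array lay below every control array, against 12.7%. The groups overlapped in the 5 others, Prim2, Dut, Uhrf1, Chaf1b and E2f1. With 3 animals a group an exact permutation test of 1 gene cannot give a two-sided p under 0.1, so no such p is given. The 4 calls rested on having all 6 arrays: no replication gene passed when any 1 of the 6 arrays was left out. With 1 array left out 0 to 12 of the 31042 probe sets passed anywhere on the array, so this holds for the array as a whole and not for these genes in particular. At an unadjusted p under 0.05, 18 to 27 of the 35 were then higher, against 9.86% to 11.5% of all genes.

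**Figure D1:**
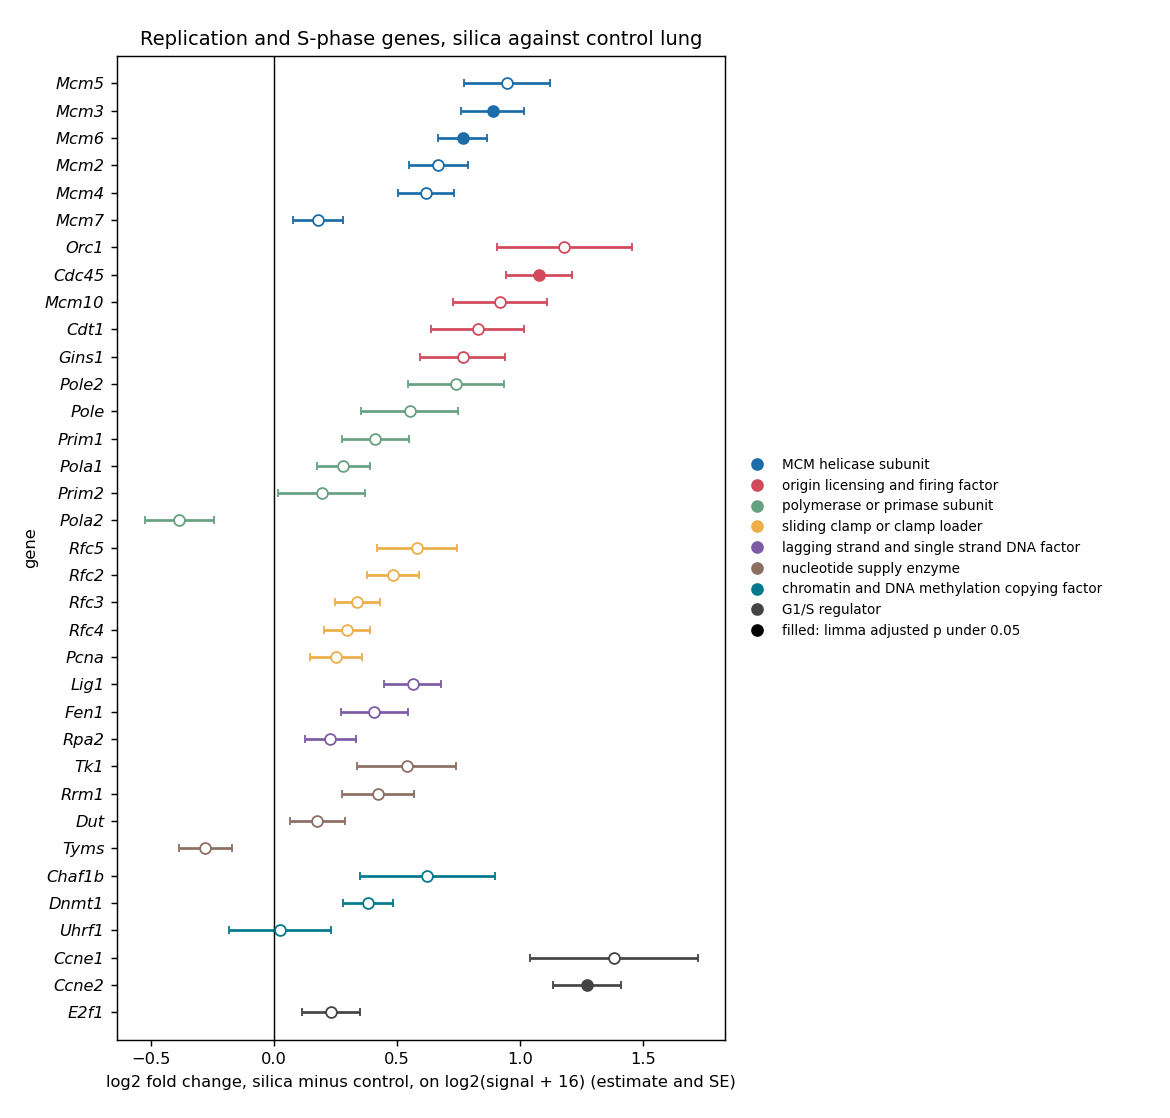
Log2 fold change (silica minus control, x axis, on log2(signal + 16)) of each of the 35 measured genes (y axis), grouped by role, with bars for the SE from limma and 3 animals a group. Filled points (Mcm3, Mcm6, Cdc45 and Ccne2) passed an adjusted p of 0.05, and the estimates of Pola2 and Tyms lie left of 0.

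The list was also read at its promoters, because E2F sites are the textbook sequence feature of S-phase genes and the list was not chosen on sequence. RefSeq promoter windows of the rat build GRCr8, from 250 bases before to 50 bases after the annotated start, were matched by symbol for 32 of the 38 genes. The search used 4 E2F words (TTTGGCGC, TTTCGCGC, TTTGGCGG and TTTCCCGC) on both strands. A match was present in 17 of the 32 windows, or 53.1%. The share was 2.18% of all 33469 windows of the same length and 3.78% of the 11733 windows of genes on the array. All 5 MCM ring genes with a window (Mcm2, Mcm3, Mcm5, Mcm6 and Mcm7) held a match, as did Cdt1, Mcm10, Cdc45 and Gins1 and 4 of 6 polymerase and primase genes. Gins2 held none. In the clamp and clamp loader role 1 of 5 did (Rfc3). A match was also present in 1 of 3 lagging strand genes (Lig1), 1 of 4 nucleotide genes (Tyms) and 1 of 3 chromatin genes (Dnmt1). Each role had few windows, so its share is loosely fixed. The 1 G1/S regulator with a window, Ccne1, held none. A match is a description of letters in a window, and neither a match nor its absence shows whether the factor binds there.

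Windows of mitotic genes read differently. The CHR element, searched as TTTGAA and TTCGAA on both strands, is the textbook element of genes expressed in G2 and M phase. It was present in 12 of 17 windows of mitotic genes (70.6%) and in 5 of 32 replication windows (15.6%), against 19.7% of all windows and 14.0% of those of genes on the array. An E2F word was present in 1 of the 17 mitotic windows (5.88%). The CCAAT box, searched as CCAAT on both strands, was present in 53.1% of replication windows and 82.4% of mitotic windows, against 37.5% of all. No searched word of 1 motif contains a word of another. The difference between the lists in these shares was not tested.

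Stretches of 100 bases that hold the first E2F match are shown for genes that the values below turn on: Mcm3, Mcm6 and Cdc45, which rose; Mcm2 and Gins1, in which 2 matches overlap; and Pola2 and Tyms, which carry a match and had lower signals in silica. Each is written on the gene's strand in lower case, with every E2F match in capitals. They lie at chr4:122918065-122918164, minus strand (Mcm2), chr9:30733717-30733816, minus strand (Mcm3), chr13:42404438-42404537, minus strand (Mcm6), chr11:95690073-95690172, plus strand (Cdc45), chr3:160184849-160184948, plus strand (Gins1), chr1:212680587-212680686, minus strand (Pola2) and chr9:120776067-120776166, minus strand (Tyms), all in GRCr8.
Mcm2: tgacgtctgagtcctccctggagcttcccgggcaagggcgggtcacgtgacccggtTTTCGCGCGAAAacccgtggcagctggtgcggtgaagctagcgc
Mcm3: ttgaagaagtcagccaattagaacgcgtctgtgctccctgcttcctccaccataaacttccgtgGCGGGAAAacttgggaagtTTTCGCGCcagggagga
Mcm6: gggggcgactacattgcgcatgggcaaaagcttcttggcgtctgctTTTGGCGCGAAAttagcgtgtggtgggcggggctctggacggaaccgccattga
Cdc45: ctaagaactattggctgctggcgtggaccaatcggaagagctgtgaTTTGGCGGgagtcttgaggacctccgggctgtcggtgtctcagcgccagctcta
Gins1: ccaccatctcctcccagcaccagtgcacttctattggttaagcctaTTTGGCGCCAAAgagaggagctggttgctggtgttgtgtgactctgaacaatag
Pola2: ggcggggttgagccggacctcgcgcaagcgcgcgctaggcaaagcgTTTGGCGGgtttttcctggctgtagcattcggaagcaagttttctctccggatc
Tyms: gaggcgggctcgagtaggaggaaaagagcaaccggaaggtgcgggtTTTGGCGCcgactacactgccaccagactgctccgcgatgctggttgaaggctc
In Mcm2, Mcm6 and Gins1 the capitals form 1 run of 12 bases, in which a word on the gene's strand overlaps a word on the opposite strand. Mcm5 held such a pair too, so 4 genes did. In Mcm3 a word on each strand stands apart from the other, and in Cdc45, Pola2 and Tyms there is a single word. Over the 32 windows there were 26 matches, of which 13 began in the 100 bases before the annotated start and 7 at or after it.

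**Figure D2:**
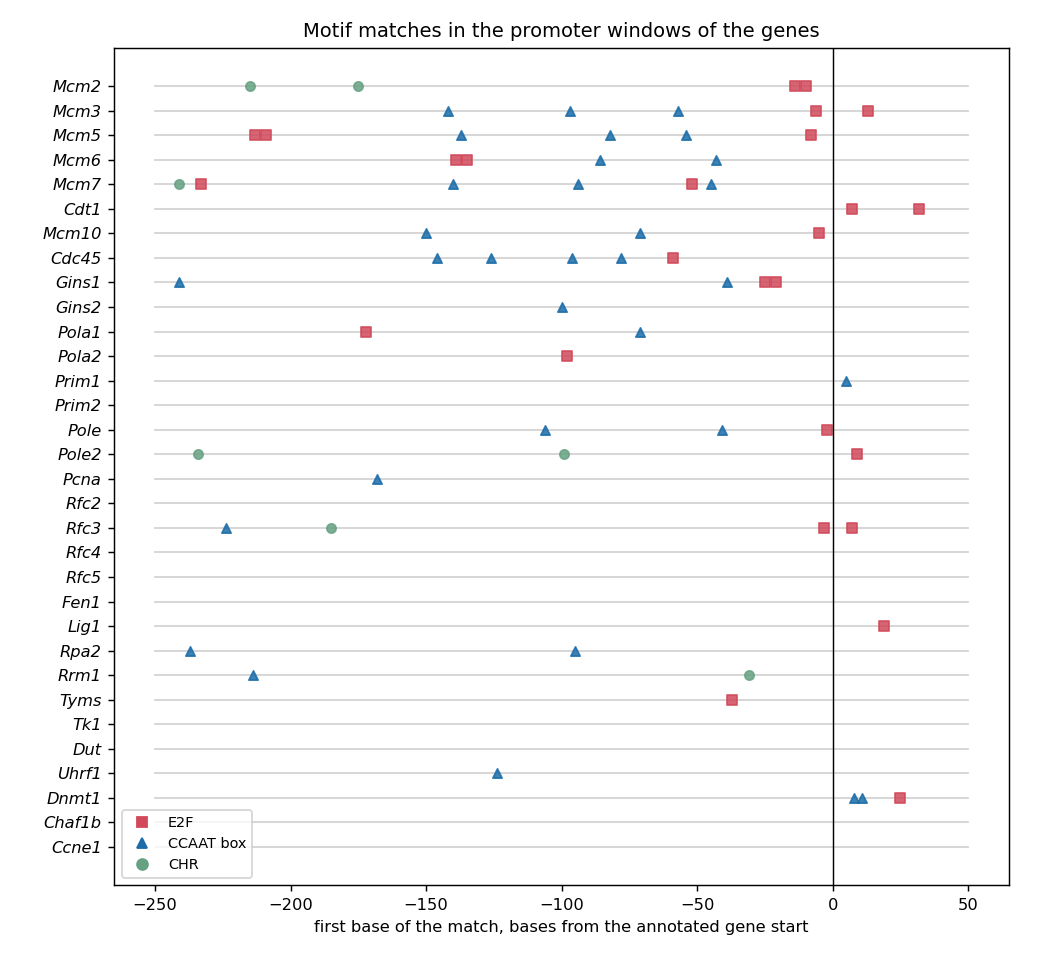
Position of E2F (squares), CCAAT box (triangles) and CHR (circles) matches in the promoter windows of 32 replication genes (y axis), as the distance in bases of the first base of the match from the annotated gene start (x axis, counted from 0 at the gene's first base). E2F matches are present in 17 windows and gather near the start, with 13 of 26 in the 100 bases before it.

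The MCM ring is the core of the replicative helicase, built from Mcm2 to Mcm7. Mcm3 had signals of 180.0, 148 and 162 in the control animals and 277, 346 and 329 in the silica animals (log2 fold change 0.89 ± 0.13, adjusted p = 0.0458). Mcm6 had 241, 234 and 239.8 in control and 385, 418 and 449.9 after silica (log2 fold change 0.77 ± 0.10, adjusted p = 0.0411). Both genes rose, and in both the lowest silica animal was well above the highest control. Mcm5 had the largest estimate of the ring, with 171, 123 and 141 in control and 286, 351 and 246 after silica (log2 fold change 0.95 ± 0.17, adjusted p = 0.0778), but a wider spread, and it did not pass. Mcm2 and Mcm4 had estimates of 0.67 ± 0.12 and 0.62 ± 0.11, with adjusted p of 0.0716 and 0.0778, and in both the groups did not overlap.

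Mcm7 stood apart from the other ring genes in size. Its signals were 1133, 1113 and 1013 in control and 1242, 1288 and 1162 after silica (log2 fold change 0.18 ± 0.10, adjusted p = 0.421). The silica animals were still above the controls, by a narrow margin. The other 5 ring genes lay between 0.62 and 0.95, and whether Mcm7 differs from them was not tested. Its promoter window also holds E2F words.

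For the 5 measured licensing and firing factors the median estimate was 0.92, and in each of them all silica animals were above all controls. Cdc45, which joins the MCM ring when an origin fires, had 103, 118 and 109 in control and 233, 297 and 225 after silica (log2 fold change 1.08 ± 0.13, adjusted p = 0.0399). It rose, with silica replicate 2 the highest animal. With the mean of its probe sets the estimate was 0.48 and did not pass (adjusted p = 0.121). Orc1, the largest subunit of the origin recognition complex, had 1.5, 0.5 and 13.6 in control and 20.1, 37.3 and 35.7 after silica (log2 fold change 1.18 ± 0.27, adjusted p = 0.120). Its control signals were near the bottom of the scale, and its log2 fold change ran from 0.46 to 3.03 over the alternatives, so its size is poorly fixed. Gins1, a subunit of the GINS complex, had 89.2, 69.6 and 89.3 in control and 130.2, 191 and 138 after silica (log2 fold change 0.77 ± 0.17, adjusted p = 0.111). Cdt1, the licensing factor that helps to load the ring, and Mcm10, which acts at the start of unwinding, had estimates of 0.83 ± 0.19 and 0.92 ± 0.19, with adjusted p of 0.117 and 0.0964.

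Polymerase and primase genes were divided. Pole2, the second subunit of the leading strand polymerase epsilon, had 62.9, 83.7 and 101 in control and 118, 173 and 152 after silica (log2 fold change 0.74 ± 0.20, adjusted p = 0.150). Pole, its catalytic subunit, had 71.9, 61.3 and 49.3 in control and 78.8, 128 and 86.4 after silica (log2 fold change 0.55 ± 0.20, adjusted p = 0.239), with silica replicate 2 far above the other 2 silica animals. In both genes the groups did not overlap, although neither passed. Pola2, the accessory subunit of polymerase alpha, ran the other way, with 696, 698 and 869 in control and 503, 595 and 621 after silica (log2 fold change -0.39 ± 0.14, adjusted p = 0.240, unadjusted p = 0.0321). All its silica animals were below all controls, and it did not pass over all probe sets.

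Pola2 and its partners in the polymerase alpha-primase complex had estimates of both signs. For Pola1, the catalytic subunit, the estimate was 0.28 ± 0.11 (adjusted p = 0.256), and the primase genes Prim1 and Prim2 had 0.41 ± 0.14 and 0.19 ± 0.18 (adjusted p = 0.210 and 0.620). Pola2 was represented by 1 probe set, so its direction has no second measure on the array. Over the 17 alternatives its log2 fold change stayed between -0.44 and -0.18.

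The sliding clamp and its loader had estimates from 0.25 to 0.58. Pcna, the clamp that holds polymerases on DNA and a common marker of dividing cells, had 3037, 3202 and 3400.4 in control and 3540.3, 4113 and 3838 after silica (log2 fold change 0.25 ± 0.11, adjusted p = 0.299). Rfc5 had 400.3, 274 and 292 in control and 479, 520.3 and 453 after silica (log2 fold change 0.58 ± 0.16, adjusted p = 0.163), and Rfc2 had 436, 499 and 423 in control and 648, 656 and 609.7 after silica (log2 fold change 0.48 ± 0.11, adjusted p = 0.107). All of these are subunits of the loader or the clamp it loads, and in each the silica animals were all above the controls. Rfc3 and Rfc4, also loader subunits, had 0.34 ± 0.09 and 0.30 ± 0.09, again with no overlap. None of the 5 passed, and their median was 0.34.

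On the lagging strand, Lig1, the ligase that seals Okazaki fragments, had 416, 384 and 355 in control and 563, 635 and 533 after silica (log2 fold change 0.56 ± 0.12, adjusted p = 0.0955). Fen1, the nuclease that trims their flaps, had 141, 177 and 144 in control and 184, 214 and 229.6 after silica (log2 fold change 0.41 ± 0.14, adjusted p = 0.215). Rpa2, a subunit of the single-strand binding protein RPA, had 295, 266 and 308 in control and 332, 331 and 362 after silica (log2 fold change 0.23 ± 0.10, adjusted p = 0.326). The groups did not overlap in any of the 3 genes, and none passed.

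Nucleotide supply genes were divided like the polymerase genes. Tk1, the thymidine kinase of S phase, had 119, 147 and 118 in control and 163, 261 and 167 after silica (log2 fold change 0.54 ± 0.20, adjusted p = 0.250), with silica replicate 2 well above the others. Rrm1, the large subunit of ribonucleotide reductase, had 674, 566 and 545 in control and 821, 903 and 688 after silica (log2 fold change 0.42 ± 0.15, adjusted p = 0.223). Tyms, the thymidylate synthase gene, had 105, 108 and 96.5 in control and 79.6, 91.7 and 76.0 after silica (log2 fold change -0.28 ± 0.11, adjusted p = 0.264, unadjusted p = 0.0404). Its silica animals were all below the controls, it did not pass, and it too had 1 probe set. Dut, which breaks down dUTP, had an estimate of 0.18 ± 0.11 (adjusted p = 0.471), with overlap between the groups. So the genes of thymidine salvage and of thymidylate synthesis, Tk1 and Tyms, had estimates of opposite sign, and neither passed.

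Among factors that copy chromatin, Dnmt1, the maintenance DNA methyltransferase, had 416, 429 and 396 in control and 592, 532 and 510.2 after silica (log2 fold change 0.38 ± 0.10, adjusted p = 0.153), with the groups apart. Chaf1b, a subunit of the histone chaperone CAF-1, had 49.5, 53.9 and 40.3 in control and 47.8, 107 and 104 after silica (log2 fold change 0.62 ± 0.27, adjusted p = 0.314). Silica replicate 1 lay among the controls, and the other 2 silica animals were above all of them. Uhrf1, which brings Dnmt1 to newly copied DNA, had 60.8, 56.3 and 44.1 in control and 38.1, 56.8 and 73.0 after silica (log2 fold change 0.02 ± 0.21, adjusted p = 0.968), with the groups mixed. Its sign turned in 3 alternatives, to -0.0059 with quantile normalization, -0.08 without control replicate 3 and -0.14 without silica replicate 3.

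G1/S regulators held the largest estimates. Ccne2, 1 of the E-type cyclins that drive entry into S phase, had 63.5, 54.0 and 44.0 in control and 145, 167 and 144 after silica (log2 fold change 1.27 ± 0.14, adjusted p = 0.0307). By this probe set it rose, and its lowest silica animal was far above its highest control. This probe set was the brightest over all 6 arrays only through its silica signals, and its control mean (53.8) was below that of the further Ccne2 probe set (83.3), which had an estimate of -0.08 (adjusted p = 0.797). Ccne1, the other E-type cyclin, had 7.5, 38 and 39.3 in control and 89.0, 100.1 and 85.8 after silica (log2 fold change 1.38 ± 0.34, adjusted p = 0.135). The silica animals were close together, while control replicate 1 was far below the other controls, and Ccne1 did not pass. E2f1, a transcription factor that activates this gene program, had 210.2, 184 and 189 in control and 206, 236 and 252 after silica (log2 fold change 0.23 ± 0.12, adjusted p = 0.367), with the lowest silica animal inside the control range.

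**Figure D3:**
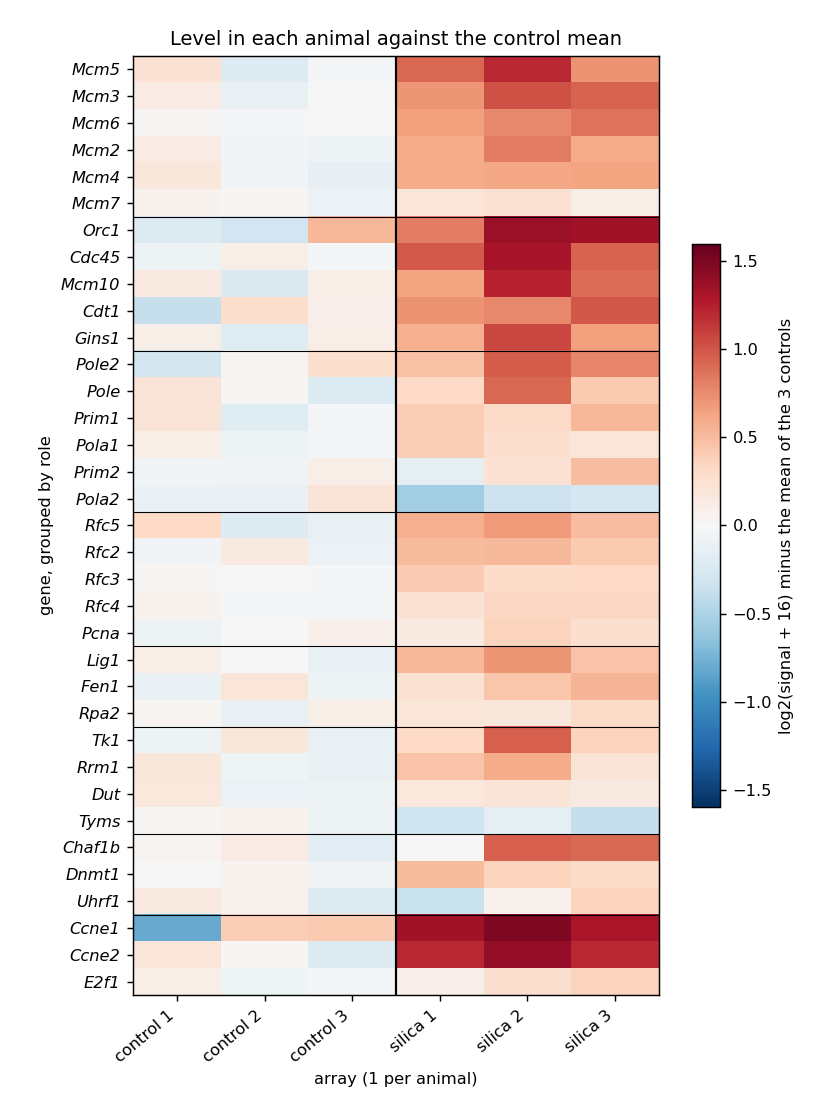
Level of each of the 35 genes (rows, by role) in each of the 6 animals (columns), as log2(signal + 16) minus the mean of the 3 control animals, with red above and blue below that mean. Silica columns are red in most rows, pale for Mcm7, Dut and E2f1, blue for Pola2 and Tyms, and pale or blue in silica replicate 1 for Prim2, Chaf1b and Uhrf1.

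Further probe sets allowed a second reading of 7 genes. These had 10 further probe sets, of which 7 had the sign of the brightest one and 3 the opposite sign, and none passed. The widest distances from the brightest probe set were 1.42, for a dim probe set of Cdc45, and 1.36, for Ccne2. The further Ccne2 probe set had 88.5, 81.2 and 80.1 in control and 85.5, 87.2 and 62.3 in silica (log2 fold change -0.08 ± 0.14), and the mean of both Ccne2 probe sets had an estimate of 0.59 (adjusted p = 0.0499). Cdc45 had 3 further probe sets, with log2 fold changes of 0.67 ± 0.25, 0.51 ± 0.29 and -0.34 ± 0.32, and the last of these had signals under 30 on every array. The brightest Cdc45 probe set carries the suffix x, which marks probes that can also match other transcripts. Mcm10, Rfc5 and Lig1 each had 1 further probe set, with the same sign and smaller values of 0.62, 0.38 and 0.24. Tk1 had 1 at 0.73 ± 0.23 and a dim one at -0.01 ± 0.47, and Dut had 1 at 0.05 ± 0.15. Mcm3 and Mcm6, like the 26 other genes with 1 probe set, have no second measure.

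The silica animals did not contribute alike. Silica replicate 2 was the highest silica animal in 21 of the 35 genes, silica replicate 3 in 11 and silica replicate 1 in 3. Over all genes these shares were 34.3%, 30.7% and 35.1%. The median over the 35 genes, above the control mean, was 0.46, 0.62 and 0.49 in silica replicates 1, 2 and 3, and between -0.03 and 0.06 in the controls. So every silica animal was above every control in this median, which is a description and not a test. Without silica replicate 2 the median over the genes was 0.46, and with any 1 array left out it lay between 0.44 and 0.58.

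Estimates also varied with brightness. The 13 genes whose control mean lay under the median probe set of the control arrays (153) had a median of 0.77 on the log2 scale, ranging from -0.28 to 1.38. The median of the 22 others was 0.39, ranging from -0.39 to 0.89. The control signals that set this split also enter each estimate, so part of the difference can come from the split itself. It was not tested.

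Genes of the same machinery outside the list gave no call. Of 36 measured initiation, fork, nucleotide and chromatin genes none passed in either direction in limma (background 1.55% higher and 0.12% lower). At an unadjusted p under 0.05, 15 of them were higher and 3 lower (background 12.6% and 7.24%). Their median was 0.24. With 21 further genes of G1/S control the count was 0 of 57, with 19 higher and 4 lower at that unadjusted threshold. The 4 smallest p among initiation factors were those of Recql4 (0.79 ± 0.18), Donson (0.43 ± 0.12), Topbp1 (0.33 ± 0.10) and Gins4 (0.38 ± 0.11). Gins4, like Gins1, encodes a GINS subunit. Of the fork genes, Rpa1, the large RPA subunit, had 0.36 ± 0.09, Wdhd1 0.58 ± 0.21 and Rnaseh2a 0.24 ± 0.09, whereas Pole4, a small subunit of polymerase epsilon, had -0.33 ± 0.11, with all silica animals below the controls.

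Chromatin and nucleotide genes outside the list ran in both directions. Asf1b, a histone chaperone gene, had 50, 36.1 and 47.7 in control and 77.1, 107 and 112 after silica (log2 fold change 0.91 ± 0.17, adjusted p = 0.0773). Hells, a chromatin remodeller gene, had 0.87 ± 0.18, and Slbp, which binds the stem loop of histone mRNA, had 0.73 ± 0.16. Shmt1, a one-carbon enzyme gene that feeds thymidylate synthesis, had -0.44 ± 0.15, the same sign as Tyms. In none of these was the adjusted p under 0.05.

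G1/S control genes had a median of 0.15 over 21 genes. E2f8, a repressor of the E2F family, had 8.8, 29.4 and 19.2 in control and 51.2, 66.9 and 51.7 after silica (log2 fold change 1.08 ± 0.23, adjusted p = 0.105). Fbxo5 and Rbl1 had 0.69 ± 0.19 and 0.51 ± 0.16. The cyclin-dependent kinase inhibitor gene Cdkn1a, a p53 target that restrains S-phase entry, had 0.40 ± 0.10 (adjusted p = 0.148). The D-type cyclin gene Ccnd1, which acts earlier in G1 than the E-type cyclins, had 0.17 ± 0.13 (adjusted p = 0.560).

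Mitotic genes, which act after replication, had a larger median estimate than replication genes. Of 19 measured, 7 rose and none fell (background 1.55% and 0.12%), with a median of 1.04. Ccna2, a cyclin of S and G2 phase, rose (log2 fold change 1.89 ± 0.23, adjusted p = 0.0388), as did Top2a, the topoisomerase that untangles copied chromosomes (log2 fold change 1.11 ± 0.16, adjusted p = 0.0448). The mitotic kinase gene Cdk1 had 1.03 ± 0.20 (adjusted p = 0.0838), and its partner Ccnb1 had 1.04 ± 0.21 (adjusted p = 0.0929). Mki67, Cdc20 and Kif11, with the smallest p of this list beside Ccna2, had 1.65, 1.30 and 0.96. Aurkb was the 1 mitotic gene with a negative estimate (-0.15 ± 0.18), and Cenpf and Aurka had 0.32 ± 0.12 and 0.38 ± 0.19. The lists were not matched for brightness, and the difference between their medians, 0.54 and 1.04, was not tested.

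**Figure D4:**
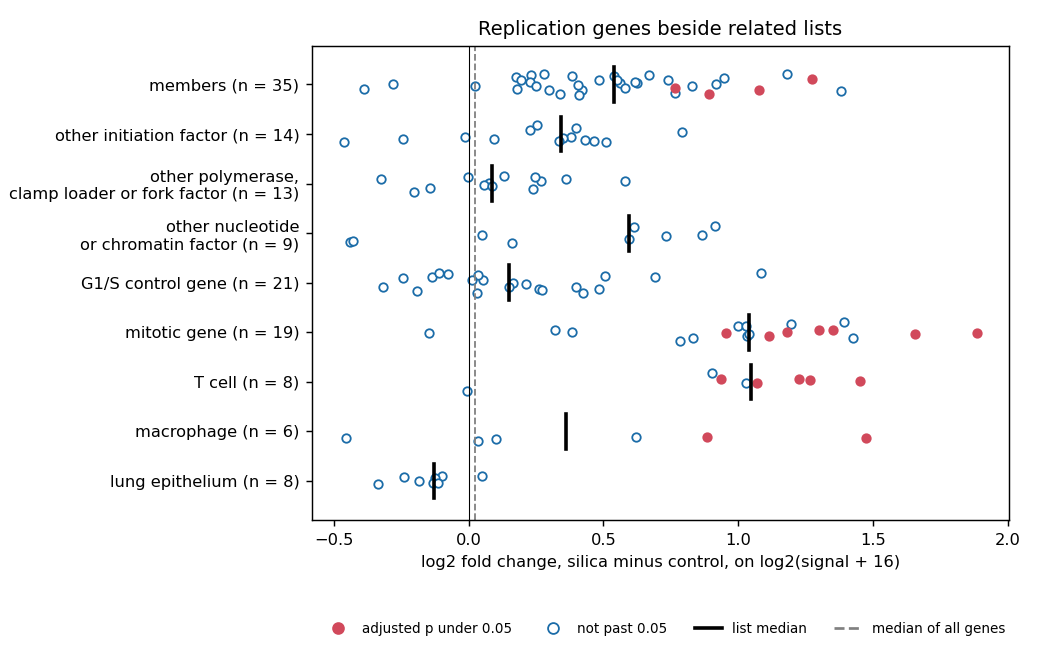
Log2 fold change (silica minus control, x axis, on log2(signal + 16)) of each gene in 9 lists (y axis), with the list median as a black bar and the median of all genes as a dashed line at 0.02. The top row, labelled members, holds the 35 replication genes. Filled red points passed an adjusted p of 0.05: 4 of 35 replication genes, none of the 57 other replication and G1/S genes, 7 of 19 mitotic genes, 5 of 8 T cell genes and 2 of 6 macrophage genes. Over all genes 1.55% passed as higher and 0.12% as lower.

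Some markers of immune cells rose in the same comparison, where 1.55% of all genes passed as higher. T cell markers rose in 5 of 8 cases, with Cd4 at -0.01 ± 0.32 among those that did not, and their summed signal was 2140 to 2640 in the control animals and 4515 to 5658 in the silica animals. Macrophage markers rose in 2 of 6 cases (Cd68 and C1qa), with summed signals of 9802 to 10165 in control and 13404 to 14372 in silica. Adgre1 had 0.62 ± 0.11 (adjusted p = 0.0733) with the groups apart, while Mrc1, Csf1r and Cd163 had estimates of 0.03, 0.10 and -0.45. None of 4 neutrophil and 4 B and plasma cell markers passed, while their summed signals were 5256 to 6889 against 9292 to 15911, highest in silica replicate 2, and 2526 to 3342 against 3615 to 5296. The neutrophil sum was mostly S100a9 (4399 ± 557 in control and 8759.5 ± 2788 in silica, mean ± SD, n = 3), and Cxcr2 had an estimate of 0.17. The B and plasma cell sum was mostly Jchain (2219 ± 466 in control and 3884 ± 790.1 in silica), and the B cell markers Cd79b and Ms4a1 had 0.07 and 0.07. Of these markers Cxcr2 and Cd163 were dim, with signals of 32.5 to 60.0 and 34.1 to 107.2 over the 6 arrays. Lung epithelial markers were strongly present, with summed signals of 140798 to 148718 in control and 124476 to 147877 in silica, and none of 8 passed. Of the 8, 7 had a negative estimate and 1 a positive one. In 4 every silica array lay below every control array, against 12.7% of all genes. At an unadjusted p under 0.05 in limma 2 were lower (background 7.24%), Ager at -0.24 ± 0.09 and Aqp5 at -0.34 ± 0.11. The part of each cell type in the replication gene values was not tested.

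Array quality touched the same comparison. Medians of the arrays lay between 151 and 155. The mean log2 ratio of 3-prime to 5-prime signal for beta-actin and GAPDH, a sign of RNA quality, was 1.23, 1.2 and 1.00 in control and 1.67, 1.5 and 1.15 in silica. With this ratio as a covariate, added after seeing the data, 33 of the 35 estimates stayed positive with a median of 0.47. At an unadjusted p under 0.05 in that fit 19 were higher, against 7.55% of all genes, and none passed after adjustment. Cardiac muscle genes, which can come from pulmonary vein walls, set control replicate 2 apart, with Myh6 at 1001, 34.1 and 982 in control and 872, 203 and 432 in silica. The source of their RNA in these samples was not tested. None of 3 cardiac, 4 endothelial and 3 erythroid markers passed.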

How the data were processed

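Lung RNA of 6 rats was hybridised to 1-colour arrays, labelled by in vitro transcription per the labels' protocols. The authors deposited linear signal intensity values per probe set, none below 0.1. The sources used here name neither the summarising software nor a filter. By their values the arrays had been scaled to a trimmed mean of 500.14 to 500.15 (2% at each end). Of 31099 probe sets 57 controls were left out. Names came from the platform annotation, updated through gene identifiers to RefSeq (GRCr8): 20826 probe sets had 1 gene, 20758 of them matched by identifier, 436 had several genes and 9780 are unnamed here. The groups were compared on log2(signal + 16) in limma 3.58.1 (R 4.3.3), with no covariate. The fit had 4 residual and 2.18 prior degrees of freedom, and p-values were adjusted by Benjamini-Hochberg across 31042 probe sets. The script was tested on simulated data. Each array was taken as 1 animal, from the design text and the numbered titles. The number of arrays limits the precision.

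The genes and lists were chosen with earlier results of these data known, so no test is given for a list. Every listed gene could be named. Signals of each animal are given for genes that passed, for the 2 largest and the smallest estimate of each role, and for negative estimates at an unadjusted p under 0.05. Of each other pathway list the 4 smallest p were named, with Mki67, Top2a, Cdk1, Ccnb1, Cdkn1a and Ccnd1. Aurkb, Aurka, Cenpf, Myh6 and the other cell type markers given singly were named after their values were seen. Alternatives were quantile normalization, median centring, probe sets under the median intensity left out, an intensity trend with robust spread, a replicate block, pseudocounts of 1 and 64, the mean of all probe sets, and each array left out. After seeing the data, 3 more were tried: a covariate for RNA quality, the fit without control replicate 3 and silica replicate 1, and probe sets chosen on the control arrays alone.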

Additional observations from a re-analysis of the deposited data

How the results depend on the processing

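Calls on single replication genes depended on the setting, while directions mostly did not. Of the 35 genes 31 were positive and Pola2 and Tyms negative in the reported fit and in every 1 of the 17 alternatives that measured them, since 10 genes drop out with dim probe sets left out. Uhrf1 turned to -0.0059 with quantile normalization, to -0.08 without control replicate 3 and to -0.14 without silica replicate 3, and with 1 array left out it ranged from -0.14 to 0.21. With probe sets chosen on the control arrays Ccne2 was at -0.084 and Rfc5 at 0.38. There 3 of the 4 genes passed and the median over the genes was 0.42. Against 4 genes higher in the reported fit, there were 4 with quantile normalization and with median centring, the same 4 genes both times. There were 14 with an intensity trend and robust spread, where 5.96% of all genes passed as higher, 12 of 25 tested with dim probe sets left out (8.2%), 10 with pseudocount 64 (3.65%) and 0 with pseudocount 1 (0.204%). The mean of all probe sets gave 6 (3.14%), of which 3 were among the 4: Cdc45 lost its call there (0.48, adjusted p = 0.121), and Ccne2 was at 0.59 in place of 1.27. The 0 calls with the RNA quality covariate and with control replicate 3 and silica replicate 1 left out come with fewer residual degrees of freedom. With 1 array left out the count was 0 each time, and no gene was lower in any setting. Over all 31042 probe sets and in both directions, against 335 in the reported fit, 1862 passed with the trend, 1675 of 15521 with dim probe sets left out, 919 with pseudocount 64, 560 of 14217 genes with the mean of all probe sets, 43 with pseudocount 1, 0 with the RNA quality covariate or those 2 arrays left out, and 0 to 12 with 1 array left out. Among other replication and G1/S genes, where 0 passed, 5 did with the trend and with dim probe sets left out, and 1 with pseudocount 64 and with the mean of all probe sets. The median log2 fold change of 0.54 was 0.41 with dim probe sets left out, 0.40 with pseudocount 64, 0.42 with the mean of all probe sets, and 0.44 to 0.58 with 1 array left out. The cause of these shifts was not tested.

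With the replicate number as a block, 0 replication genes and 1 probe set passed, and the median stayed at 0.54. That fit has fewer residual degrees of freedom than the reported one. Deviations of same-numbered arrays from their group means correlated by 0.09, 0.04 and 0.09, and every array correlated best with its own number. Within a group these deviations sum to 0, so the correlations are not independent of each other. Whether the animals were paired was not tested, and neither was the source of these correlations.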
